A study of Mus musculus with 70 samples.

Results

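The levels of 6 surface markers of stem-like and mesenchymal cells were followed through serial passage of a renal carcinoma line in mice. The 6 genes were Cd44, Nt5e (CD73), Eng (endoglin, CD105), Thy1 (CD90), Prom1 (CD133) and Ly6a (Sca-1), out of 21154 gene symbols named on the array. They were chosen by name, with earlier results of these data known. Each was read from the probe that was brightest on average over all arrays. The cells were RENCA, a mouse renal carcinoma line of BALB/c origin, carrying a lentiviral GFP, and the hosts were 6-week-old female wild-type BALB/c mice. Cultured parental cells were passage 0 (P0, 2 samples), and P1 to P6 were recovered after each of 6 rounds in mice. Cells of the KPT route were injected under the kidney capsule and recovered from the kidney tumour, with 5, 2, 2, 3, 5 and 5 samples from P1 to P6. Cells of the T-LM route were injected into the tail vein and recovered from lung metastases, with 5, 2, 3, 4, 6 and 4 samples. Cells of the K-LM route were injected into the kidney and recovered from lung metastases, with 1, 1, 5, 3, 4 and 3 samples. Per the study's methods, recovered tissue was digested and cultured for about 2 weeks until cells without GFP were no longer seen, while the labels describe homogenised samples, so some samples may hold host cells. Nothing ties a replicate to its own mouse or culture, so p-values measure the spread between samples, which may be technical.

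The products of these genes sit on the cell surface and are used to sort stem-like and mesenchymal cells. Cd44 binds hyaluronan in the matrix, Nt5e makes adenosine from extracellular AMP, and Eng is a co-receptor for TGF-beta family ligands. Thy1 marks T cells and neurons as well as fibroblasts, Prom1 is a membrane glycoprotein of apical protrusions, and Ly6a is a lipid-anchored protein of the Ly6 family that is induced by interferons in many mouse cells.

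Levels are given as log2 of the processed signal relative to the 75th percentile of commonly detected probes on the same array, so 0 is the brightness of that percentile, and levels of different probes are not compared. The scanner software called 25.1% to 55.1% of probes per array (median 32.9%) well above background. Of 70 arrays on 9 slides, 8 arrays lay on a late slide that held all 3 K-LM P6 samples and repeat arrays of both P0 samples and of KPT P6 replicates 1, 2 and 4. Levels of these 5 samples are means of both arrays. The repeats correlated with the first arrays at r of 0.985 to 0.991, but the dim P0 probes for Nt5e, Thy1 and Prom1 read 1.07 to 1.54 lower on the late slide. T-LM P1 replicate 1, whose title names no route, stood apart from the other 4 samples of its group, and results that use it are given with and without it. Of 8 renal epithelial markers, Pax2, Cdh1, Cdh16 and Epcam were not well above background in P0. Changes are limma fits with their standard error (SE), and a change is called when the Benjamini-Hochberg adjusted p over all tested probes is 0.01 or less.

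Transcripts of Cd44 were well above background in all 65 samples, those of Eng and Ly6a likewise, those of Nt5e in 52, of Thy1 in 46 and of Prom1 in 5. From P0 to P6, Nt5e rose in all 3 routes, Cd44 rose in both lung routes, and Thy1 and Ly6a rose in K-LM. Eng was not called between P0 and P6 in any route. In KPT, 1 of 6 tested members was called, against 3.88% of all tested probes. In T-LM, 2 of 5 were called against 7.31%, and in K-LM 4 of 5 against 4.83%, with Prom1 not tested in either. The median change of the tested members was 1.46 for KPT, 1.61 for T-LM and 2.85 for K-LM, and that of all tested probes was -0.01, 0.00 and 0.00. Nt5e and Thy1 were below background in both P0 samples, as was Prom1. Where tested, they passed the filter only through passaged samples, so only a rise from P0 was open to them. The counts and medians are partly fixed by this. The 3 comparisons share the P0 samples. The study had already reported an increase of Cd44 and Nt5e, so these counts are not those of genes picked blind.

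**Figure D1:**
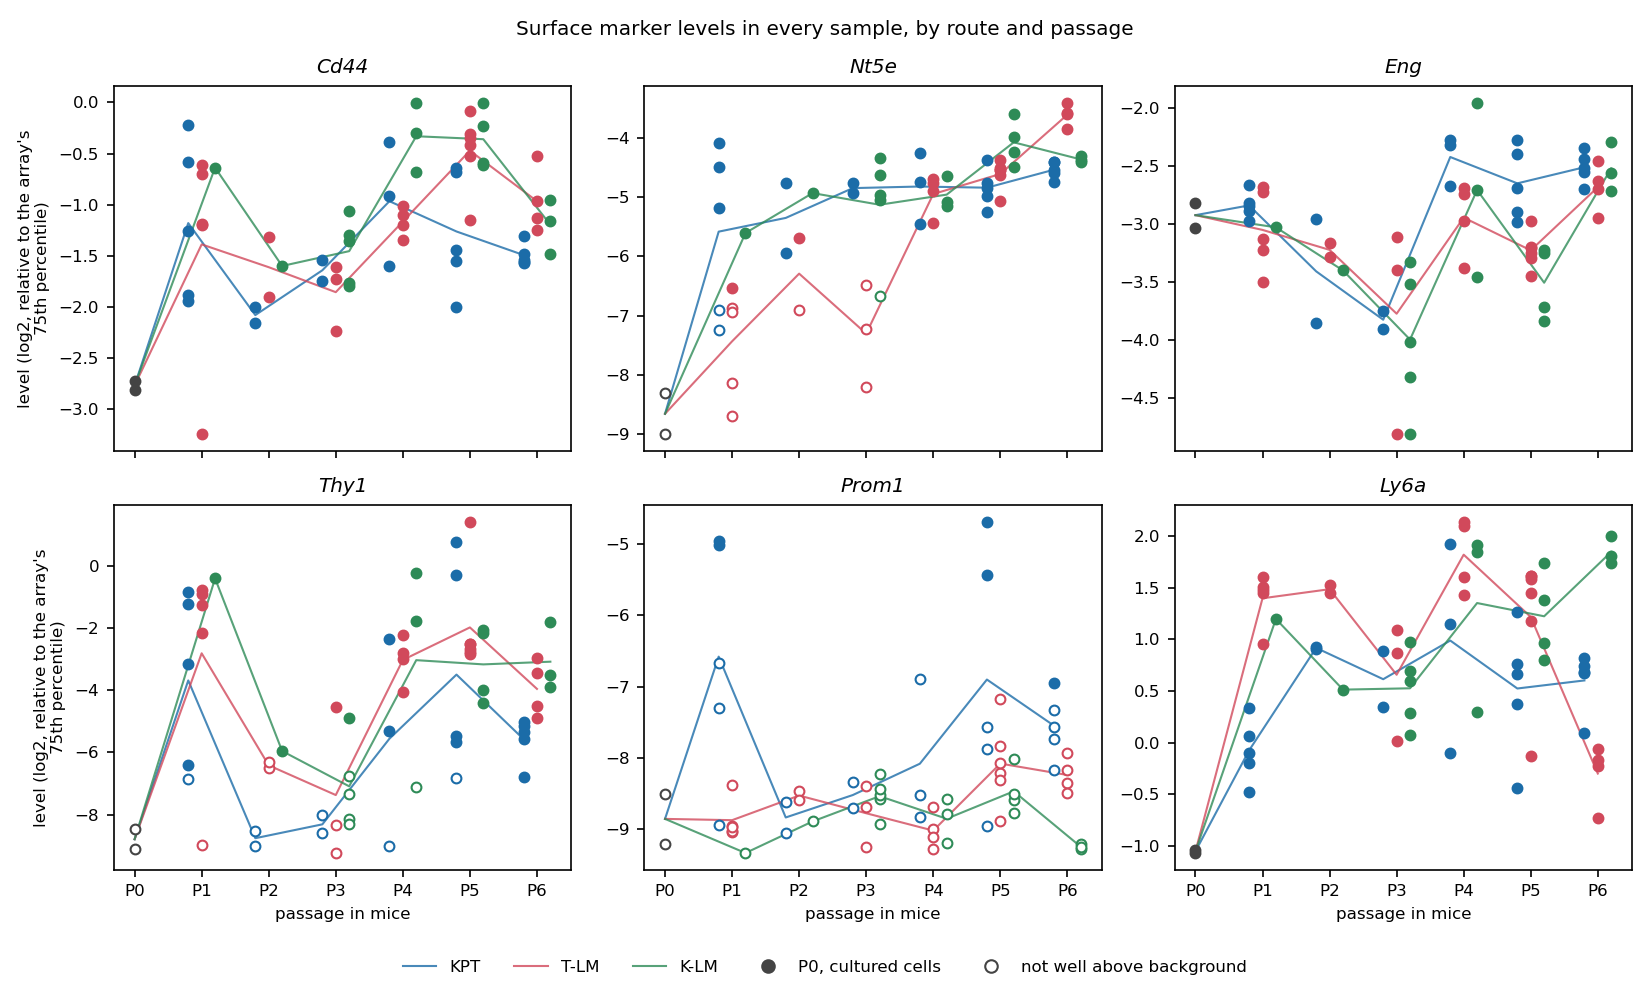
Level of each member (log2, relative to the array's 75th percentile, vertical axis) in every sample by passage (horizontal axis) and route (colour), with lines through the group means and open circles for samples not well above background. Nt5e runs from -9.0 and -8.32 in P0 to between -4.74 and -3.40 in all P6 samples, whereas Eng in P6 lies close to P0.

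Nt5e, the ecto-enzyme that turns AMP into adenosine, went from below background to measurable in every route. In P0 its levels were -9.0 and -8.32, not well above background in either sample. In KPT P6 the 5 samples were at -4.54, -4.59, -4.40, -4.41 and -4.74, and in K-LM P6 the 3 samples were at -4.31, -4.40 and -4.37. In T-LM P6 the 4 samples were at -3.40, -3.60, -3.58 and -3.84. All 12 P6 samples were above both P0 samples, and the T-LM samples were above those of the other routes. Groups without overlap were common, at 34% of tested probes from P0 to P6 along KPT, 43% along T-LM and 56.4% along K-LM, and at 19.7% between KPT and T-LM at P6, 40.4% between KPT and K-LM and 42.8% between T-LM and K-LM. Nt5e was at least 4.34-fold higher in KPT P6 than in P0 (fitted change 3.37 ± 0.32 SE, adjusted p = 2.35e-06). It was at least 8.28-fold higher in T-LM P6 (4.36 ± 0.38, 1.31e-07) and at least 4.90-fold higher in K-LM P6 (4.52 ± 0.59, 1.47e-05). The folds are lower bounds, with P0 raised to the dimmest signal that passed background on its arrays, whereas the fitted changes are set against the dim P0 values as read. The 3 calls held under every alternative run and with any single sample left out.

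The routes differed in when Nt5e appeared. In KPT it was below background in P1 replicates 1 and 2 (-7.24 and -6.91) but measured in the other 3 P1 samples (-5.18, -4.08 and -4.50) and in every later sample. In KPT P3 the 2 samples were at -4.93 and -4.76, which left little room to P6 (change 0.25 ± 0.32, adjusted p = 0.699). In T-LM it was still below background in all 3 P3 samples, at -8.21, -7.23 and -6.48, and above it in all 4 P4 samples, at -5.44, -4.70, -4.89 and -4.76. All T-LM P6 samples exceeded all T-LM P3 samples, where 23.8% of tested probes did not overlap, and Nt5e was at least 7.64-fold higher in P6 (change 3.70 ± 0.33, adjusted p = 6.06e-07). It was the only one of 5 tested members called in this comparison, against 7% of tested probes. In T-LM P1 only replicate 5 was measured (-6.53), and with the other P1 samples raised in the same way Nt5e was at least 8.56-fold higher in P6 (fitted change 3.83 ± 0.38, adjusted p = 2.37e-07). Without P1 replicate 1 it was at least 8.54-fold higher (fitted change 3.52). In K-LM the single P1 and P2 samples were at -5.60 and -4.93, and 4 of 5 P3 samples were measured, at -4.62, -5.05, -4.33 and -4.97. The remaining K-LM P3 sample, replicate 1, was below background at -6.67, and the change to P6 was not called (1.21 ± 0.54, adjusted p = 0.131). Timing between routes was not tested.

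Nt5e ranked highest in T-LM P6 among the 19 groups and lowest in P0, and most neighbours in this order overlapped. At P6 it was 0.79 ± 0.29 higher in T-LM than in KPT (adjusted p = 0.0704), with no overlap of samples. Without the term for the late slide the difference was 0.99 (adjusted p = 0.000212), and K-LM was then lower than T-LM by 0.76 (adjusted p = 0.003), against a change of -0.36 ± 0.40 (adjusted p = 0.568) with the term. Nt5e was also called in both comparisons with normexp, with the series values and with a floor on dim values, so 4 of 10 alternatives gave each call (lowest adjusted p 8.25e-06 and 0.00047, highest 0.468 and 0.811). K-LM P6 lies on the late slide only. The slide term rests partly on P0, where Nt5e was below background and the repeats differed by -1.544 and -1.235. Those of KPT P6 differed by 0.154, 0.51 and -0.093.

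The promoter windows of members with a reference sequence are shown as the reference DNA at the starts of the genes compared here. The sequences are RefSeq's for assembly GRCm38.p6, not read from RENCA, and cover 250 bases before to 50 after the transcript start, 5′ to 3′ on the gene's strand. Windows matched 4 of 6 members, namely Cd44, Nt5e, Eng and Prom1. Capitals mark matches on either strand to 3 motifs: the GC box GGGCGG, the AP-1 site TGANTCA and the hypoxia response core ACGTG. Nt5e lies at chr9:88327359-88327658 on the plus strand, Cd44 at chr2:102901616-102901915 on the minus strand, Eng at chr2:32646345-32646644 on the plus strand, and the first of 2 windows of Prom1 at chr5:44101687-44101986 on the minus strand.
Nt5e: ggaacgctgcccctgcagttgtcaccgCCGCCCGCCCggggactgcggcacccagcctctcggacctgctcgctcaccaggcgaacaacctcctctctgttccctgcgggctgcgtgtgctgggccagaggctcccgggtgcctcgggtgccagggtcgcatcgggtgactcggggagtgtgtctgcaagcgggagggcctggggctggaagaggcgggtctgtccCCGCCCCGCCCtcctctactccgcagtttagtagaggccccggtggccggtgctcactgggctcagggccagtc
Cd44: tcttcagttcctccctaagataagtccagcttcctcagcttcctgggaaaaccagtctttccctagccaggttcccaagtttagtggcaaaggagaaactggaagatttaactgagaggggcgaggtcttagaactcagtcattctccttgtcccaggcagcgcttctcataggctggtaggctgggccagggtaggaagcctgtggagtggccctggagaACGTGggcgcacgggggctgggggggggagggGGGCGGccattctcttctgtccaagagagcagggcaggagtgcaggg
Eng: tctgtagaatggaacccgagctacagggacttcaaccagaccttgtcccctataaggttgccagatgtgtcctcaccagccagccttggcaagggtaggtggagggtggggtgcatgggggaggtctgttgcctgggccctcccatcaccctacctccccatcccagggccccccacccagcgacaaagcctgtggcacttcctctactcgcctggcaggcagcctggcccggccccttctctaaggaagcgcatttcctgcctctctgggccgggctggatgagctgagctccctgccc
Prom1: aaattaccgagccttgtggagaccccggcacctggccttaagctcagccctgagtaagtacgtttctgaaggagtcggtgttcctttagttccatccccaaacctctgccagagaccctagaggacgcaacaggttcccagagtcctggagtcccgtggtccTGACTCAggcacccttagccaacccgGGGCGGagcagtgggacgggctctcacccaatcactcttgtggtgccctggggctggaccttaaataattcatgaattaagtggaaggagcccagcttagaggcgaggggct

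The Nt5e window held 4 GC box matches in 2 overlapping pairs and had a GC content of 71%, against a median of 52.7% over 32851 windows. The Cd44 window held 1 GC box and 1 hypoxia response core, with a GC content of 58%. The Prom1 window held 1 GC box and 1 AP-1 match at 57%, and the Eng window held no match at 63.3%. A GC box was found in 35.7% of all windows, an AP-1 match in 7.81% and the hypoxia core in 19.6%. A match describes the letters only.

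Cd44, the hyaluronan receptor, rose from P0 to P6 in T-LM and K-LM. Its P0 levels were -2.81 and -2.72. The T-LM P6 samples were at -1.13, -0.53, -0.96 and -1.25, and the K-LM P6 samples at -1.16, -1.48 and -0.95. The 5 KPT P6 samples lay together at -1.48, -1.30, -1.56, -1.54 and -1.57. Every P6 sample was above both P0 samples, where 34% of tested probes did not overlap along KPT, 43% along T-LM and 56.4% along K-LM. The rise was 3.04-fold in T-LM (1.61 ± 0.28 on the log2 scale, adjusted p = 0.000469) and 3.23-fold in K-LM (1.69 ± 0.28, 0.000282). In KPT the change of 1.12 ± 0.34 was not called (adjusted p = 0.0609), but it was 1.46 with adjusted p = 0.000897 on the late slide alone. Leaving out P0 replicate 1 ended the T-LM call (1.39, adjusted p = 0.025). A second Cd44 probe gave 0.97 in T-LM (adjusted p = 0.0917) and 0.94 in K-LM (adjusted p = 0.0517), so the calls rested on the brighter probe.

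Between these ends Cd44 was not level. It was highest in K-LM P4 (-0.68, -0.30 and -0.01), in K-LM P5 (-0.60, -0.00, -0.61 and -0.23) and in T-LM P5. The 6 T-LM P5 samples ran from -1.15 to -0.09 around a median of -0.39, with a mean of -0.47 ± 0.36 (SD). These groups overlapped one another, and the order of all 19 group means ended with P0, which no other group's samples overlapped apart from T-LM P1 through its replicate 1 (-3.24). KPT P1 spread widely, with -1.95, -1.89, -1.26, -0.23 and -0.59. Between routes, the Cd44 change at P5 was 0.79 ± 0.25 from KPT to T-LM (adjusted p = 0.0491) and 0.90 ± 0.28 from KPT to K-LM (adjusted p = 0.0373). At P6 it was 0.45 ± 0.17 from KPT to T-LM, with an adjusted p of 0.0714. None of these passed the threshold.

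Eng, the TGF-beta co-receptor, was lower at P3 than at P6 in KPT and K-LM. Its P0 levels were -3.03 and -2.82. In KPT the P3 samples were at -3.75 and -3.90 and the P6 samples at -2.70, -2.35, -2.44, -2.55 and -2.52. In K-LM the P3 samples were at -4.01, -3.52, -3.32, -4.81 and -4.32 and the P6 samples at -2.71, -2.29 and -2.56. No P3 sample of these routes reached a P6 sample, and the groups did not overlap for 42.1% of tested probes in KPT and 34.6% in K-LM. From P3 to P6 Eng rose 2.55-fold in KPT (1.35 ± 0.23, adjusted p = 0.00721) and 2.91-fold in K-LM (1.54 ± 0.33, adjusted p = 0.00571). It was the only called member of 6 in KPT, against 0.715% of tested probes, and of 5 in K-LM, against 3.53%. In T-LM the P3 samples were at -4.81, -3.11 and -3.40 and the P6 samples at -2.70, -2.63, -2.46 and -2.95, also without overlap, and the change of 1.09 ± 0.29 was not called (adjusted p = 0.0153). It ranged from 0.57 without P3 replicate 2, the sample at -4.81, to 1.42 without P3 replicate 3, and of the samples left out only the latter gave a call (adjusted p = 0.00329).

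An RNA index moved with Eng. The index is the mean level of long mRNAs minus that of ribosomal protein mRNAs, and it was -9.01 in KPT P3 and -8.93 in K-LM P3, against -7.38 and -7.41 in the P6 groups and -7.47 in P0. With the index as a covariate the change was 0.95 in KPT (adjusted p = 0.878) and 0.87 in K-LM (adjusted p = 0.193). Endothelial cells carry Eng as well. The summed signal of 7 endothelial markers was 0.903 to 0.918 in KPT P3 and 0.687 to 1.51 in K-LM P3. In P6 it was 0.285 to 0.507 and 0.409 to 0.47. Kdr was the only marker of the 7 well above background in these P3 groups. In P6, Cdh5 also passed in both routes and Vwf in K-LM, while Tek and Tie1 passed in no group. From K-LM P3 to P6 Kdr changed by -0.355 ± 0.33, Cdh5 by 1.12 ± 0.76 and Vwf by 0.72 ± 0.31. None was called (adjusted p = 0.489, 0.322 and 0.11). Whether endothelial cells have a part in the Eng values was not tested. The KPT call was lost when P3 replicate 1 or 2 or P6 replicate 2, 3, 4 or 5 was left out (adjusted p up to 0.168). The K-LM call was lost when P3 replicate 4 or 5 or any of the 3 P6 samples was left out (adjusted p up to 0.0333).

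At P5 Eng was the only member called between routes. The KPT P5 samples were at -2.98, -2.90, -2.40, -2.28 and -2.69 and the K-LM P5 samples at -3.25, -3.84, -3.22 and -3.71, so the routes did not overlap, as for 21% of tested probes. Eng was 1.81-fold lower in K-LM (-0.86 ± 0.18, adjusted p = 0.00502), 1 call among 6 tested members against 7.4% of tested probes. The mean RNA index was -8.30 in KPT P5 and -9.19 in K-LM P5, and with it as a covariate the difference was -0.50 (adjusted p = 0.117). Leaving out K-LM P5 replicate 3 or 6, or KPT P5 replicate 3, 4 or 5, ended the call (adjusted p up to 0.023). Leaving out KPT P5 replicate 1 kept the Eng call and added Nt5e, which was then 0.88 higher in K-LM (adjusted p = 0.00907, against 0.77 and 0.02 with it). No member was called from KPT to T-LM at P5, where 5.42% of tested probes were, or from T-LM to K-LM, where 3.42% were, and limma's unadjusted p was below 0.05 for 2 and for 1 of the 6.

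**Figure D2:**
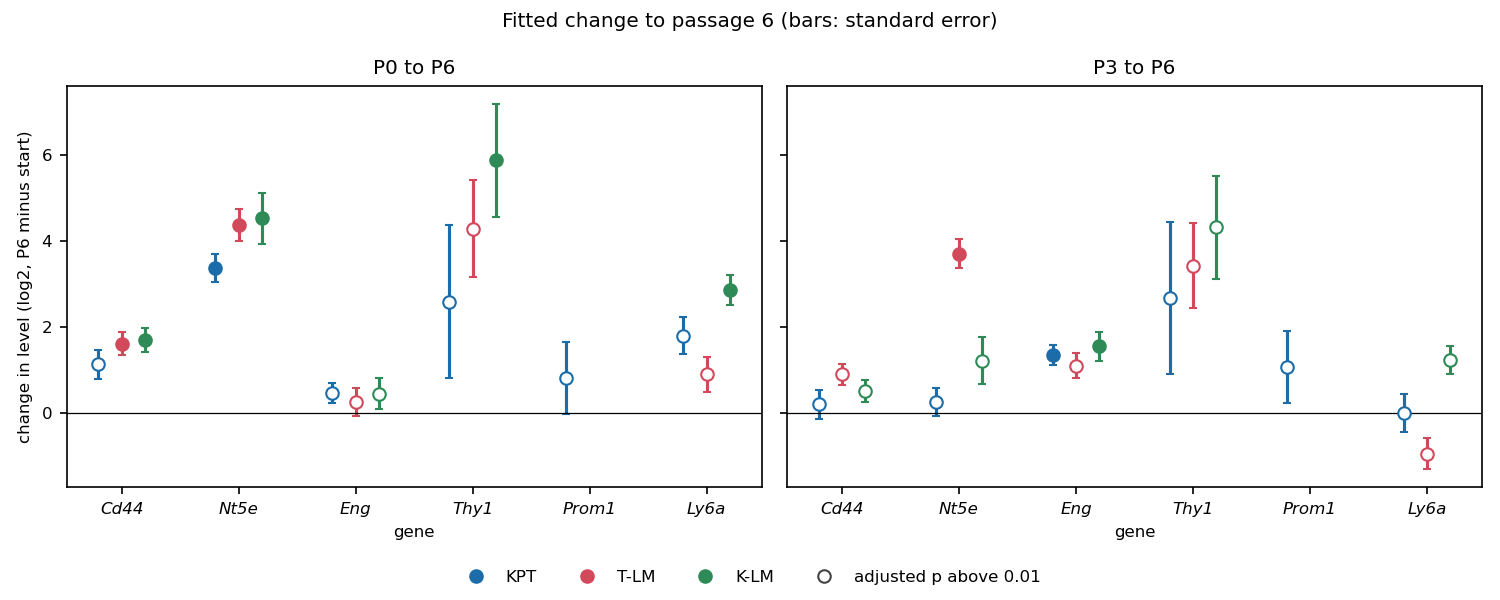
Fitted log2 change (vertical axis, bars are the SE) of each member from P0 to P6 (left) and from P3 to P6 (right) for the 3 routes, with filled points for an adjusted p of 0.01 or less. Nt5e is filled in all 3 routes from P0 and only in T-LM from P3, and Eng is filled in KPT and K-LM from P3. Prom1 was tested in KPT only.

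Thy1, a surface glycoprotein of fibroblasts and T cells, varied most between samples of a group among the members, with an SD of up to 3.61. Both P0 samples were below background, at -9.12 and -8.47. The K-LM P6 samples were at -3.52, -3.90 and -1.82, the T-LM P6 samples at -3.44, -2.95, -4.51 and -4.91, and the KPT P6 samples at -6.80, -5.33, -5.58, -5.02 and -5.14. All P6 samples were measured and lay above P0, and KPT lay below both lung routes. Of tested probes, 34% did not overlap from P0 to P6 along KPT, 43% along T-LM and 56.4% along K-LM. At P6 the share was 19.7% between KPT and T-LM and 40.4% between KPT and K-LM. Thy1 was at least 11.9-fold higher in K-LM P6 than in P0 (change 5.87 ± 1.31, adjusted p = 0.0048). This call was lost without K-LM P6 replicate 1 (6.09, adjusted p = 0.0129) or replicate 3 (5.24, 0.0315) and without P0 replicate 1 (5.43, 0.08) or replicate 2 (6.10, 0.0452). It was also lost with a floor on dim values (3.53, adjusted p = 0.0783), with all arrays in 1 model (5.88, 0.038), with the replicate block (5.29, 0.018) and without the slide term (5.15, 0.0324), so it held in 7 of 11 alternatives. In T-LM Thy1 was at least 6.50-fold higher (fitted change 4.28 ± 1.13, adjusted p = 0.015) and in KPT at least 2.12-fold (2.58 ± 1.78, adjusted p = 0.498), neither called. On the late slide alone the fitted changes were 3.77 in KPT (adjusted p = 0.00461) and 6.28 in K-LM (adjusted p = 0.000223).

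At P6 the fitted Thy1 change from KPT to K-LM was 2.74 ± 0.59 (6.70-fold, adjusted p = 0.00211), with no overlap. By the sample levels, with dim arrays raised as above, Thy1 was at least 5.33-fold higher in K-LM. The slide term of the fit rests partly on P0, where Thy1 was below background and the repeats differed by -1.18 and -1.08. Those of KPT P6 differed by 0.53, -0.09 and 0.31. Thy1 and Ly6a were 2 called of 5 tested from KPT to K-LM at P6, against 16% of tested probes. Within the late slide the Thy1 difference was 2.51 (adjusted p = 0.0125), and without K-LM P6 replicate 3 it was 2.12 (adjusted p = 0.0176), neither of which passed the threshold, and with all arrays in 1 model its adjusted p was 0.326. From KPT to T-LM it was 1.53 ± 0.50 (adjusted p = 0.0416), also without overlap.

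In earlier passages Thy1 was bright in some samples of a group and not well above background in others. In KPT it was measured in P1 replicates 1, 3, 4 and 5 (-6.39, -3.14, -1.21 and -0.82) and in no P2 or P3 sample. The 5 KPT P5 samples were at 0.77, -0.28, -5.47, -6.82 and -5.66. Replicates 1 and 2 thus stood far above the other three, of which replicate 4 was below background. In T-LM P1, replicate 1 was below background at -8.97 while the others were at -2.16, -0.89, -1.24 and -0.77. The 6 T-LM P5 samples ran from -2.84 to 1.44 around a median of -2.59, and replicate 1 alone was above -2.49. In K-LM P4, replicate 1 was below background at -7.10 and replicates 3 and 5 were at -1.78 and -0.21. Among the 5 K-LM P3 samples only replicate 3 was measured, at -4.90, and Thy1 was at least 7.37-fold higher in P6 (adjusted p = 0.0218). In T-LM P3 likewise only replicate 5 of 3 was measured, at -4.54, and Thy1 was at least 3.87-fold higher in P6 (adjusted p = 0.0265). Neither was called with all samples. Leaving out the single measured sample leaves P3 below background throughout, and the bounds were then 8.85-fold and 6.22-fold (adjusted p = 0.00806 and 0.00158).

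Fibroblast and pericyte transcripts moved with Thy1 in some groups but not in all. The summed linear signal of 8 markers, among them the collagen genes Col1a1, Col1a2 and Col3a1, was 0.0393 and 0.0452 in P0, where Pdgfra, Pdgfrb, Lum and Rgs5 were not well above background. It was 0.58 to 1.28 in KPT P6, 2.30 to 7.80 in T-LM P6 and 1.06 to 3.18 in K-LM P6. The sum was also above P0 in KPT P2 (0.32 to 0.609), KPT P3 (0.221 to 0.256) and T-LM P2 (0.392 to 0.882). Thy1 passed background in no sample of these groups. In K-LM P3, where only replicate 3 had measured Thy1, the sum was 0.235 to 0.566. In KPT P5 it was 29.3 and 7.22 in replicates 1 and 2 and 0.508 to 0.679 in the others, and in T-LM P5 it was 48.1 in replicate 1 and 1.63 to 3.37 in the others. In T-LM P1 it was 0.472 in replicate 1 and 6.28 to 17.9 in the others. Within KPT P5 and T-LM P5 the samples with the brightest Thy1 also had the highest marker sums, and T-LM P1 replicate 1 had the lowest of its group in both. From P0 to P6, 2 of 6 tested markers rose along KPT, 6 of 7 along T-LM and 4 of 7 along K-LM, and none fell. Of all tested probes, 3.4%, 5.9% and 3.66% were called higher. Markers below background in P0 passed the filter only through passaged samples, so a fall was not open to them. Leukocyte and macrophage transcripts were higher in some of the same samples. Their 8 markers summed to 2.97 and 2.56 in P0, where Ptprc, Adgre1, Tyrobp and Fcer1g were not well above background. In KPT P5 they summed to 7.17 and 8.99 in replicates 1 and 2, with all 8 measured, and to 4.35 to 4.76 in the others. In P6 the sums were 3.66 to 4.99 in KPT, 3.64 to 4.05 in T-LM and 2.85 to 4.21 in K-LM. Of the 8, 4 rose from P0 to P6 along T-LM, against 5.9% of all tested probes. None was called along KPT or K-LM, where 2 and 0 had an unadjusted p under 0.05 by limma. At P6, 4 were higher and 1 was lower in T-LM than in KPT, against 6.98% and 4.53% of all tested probes. In K-LM 5 were lower than in T-LM, against 7.7%. Lung epithelial transcripts were higher in T-LM P6 too. Their 5 markers summed to 0.124 to 0.688 there, against 0.0214 to 0.0239 in P0 and 0.0252 to 0.0367 in T-LM P3. In K-LM P6 the sum was 0.062 to 0.101. Of 3 tested, 1 was called higher in T-LM P6 than in P0, 2 than in T-LM P3 and 3 than in T-LM P1. The shares of all tested probes were 5.9%, 5.62% and 3.83%. The limit given for fibroblast markers below background in P0 holds for lung epithelial and leukocyte markers too. Whether these fibroblast, leukocyte or lung epithelial markers have a part in the Thy1 values, or in those of Nt5e in T-LM P6, was not tested. In such bulk samples, fewer cells of a type and less RNA per cell cannot be told apart. The 6 T cell markers summed to 0.242 to 0.691 over all groups, and Cd3d was well above background in no sample.

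**Figure D3:**
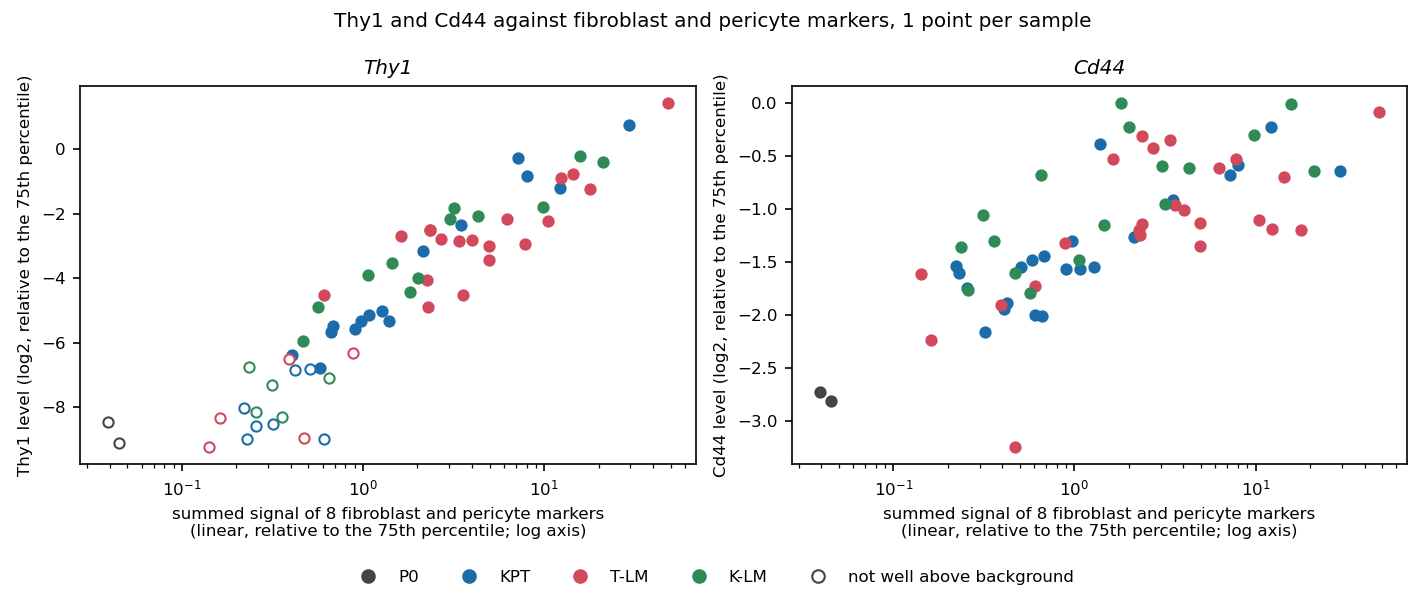
Level of Thy1 (left) and Cd44 (right) in each sample (log2, vertical axis) against the summed linear signal of 8 fibroblast and pericyte markers (horizontal log axis), coloured by route, with open circles for samples not well above background. Thy1 is below background in the P0 samples at 0.0393 and 0.0452. It is also below background in KPT P3 (0.221 to 0.256) and KPT P2 (0.32 to 0.609). At higher sums Thy1 climbs up to T-LM P5 replicate 1 at 48.1, and Cd44 climbs less steeply.

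The pattern of Thy1 over the 19 group means was closest to those of Col1a1 (r = 0.977), Adamts2 (r = 0.976) and Cd248 (r = 0.975), among 11893 symbols measured in at least 10 samples. Among members, Thy1 ran closest to Cd44 (r = 0.82), and Cd44 next to Nt5e (r = 0.65). The genes nearest to Cd44 were Ptgs2 (r = 0.947), Emilin2 (r = 0.92) and Rap1gap (r = 0.914). Those nearest to Nt5e were Arap3 (r = 0.883), Srgn (r = 0.877) and Slc11a1 (r = 0.876), and to Eng they were Lrrk1 (r = 0.931), Tacc2 (r = 0.912) and Ift172 (r = 0.908). The correlations describe group means that share routes, slides and P0, and other members' pairs had r of 0.51 or less. With T-LM P1 replicate 1 left out of its mean, r was 0.83 for Thy1 and Cd44 and 0.59 for Cd44 and Nt5e. Other members' pairs then had r of 0.54 or less, and the genes named here had r of 0.87 to 0.979.

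Prom1 was near the limit of detection throughout. It was well above background in KPT P1 replicates 4 and 5 (-5.02 and -4.97), KPT P5 replicates 1 and 2 (-4.69 and -5.43) and KPT P6 replicate 4 (-6.95). Each of these is a kidney tumour sample, and in P0, T-LM and K-LM the gene passed background in no sample. The same 2 KPT P5 samples, and KPT P1 replicates 4 and 5, had the highest Thy1 levels and fibroblast marker sums of their groups. Renal epithelial marker sums were 14.5 to 21.1 in KPT P1 and 20.9 to 25.0 in KPT P5, against 17.2 and 20.2 in P0. The sums hide the dim markers. Of the 8, 3 to 4 passed background in a P0 sample, 4 to 7 in KPT P1 and 5 in KPT P5. Cdh16 had a mean of -8.51 in P0, below background, -5.45 in KPT P1 and -4.43 in KPT P5. Its mean was also -4.84 in KPT P4 and -4.61 in KPT P6, measured in every sample. Prom1 passed background there in 0 of 3 and 1 of 5 samples. Cdh1 and Epcam passed in KPT P1 but not in KPT P5. Any part of such cells in the Prom1 values was not tested. Prom1 could be tested in the KPT and P5 fits only and was called in none, with changes from P0 of 1.69 ± 0.98 at KPT P1 (adjusted p = 0.278) and 0.81 ± 0.84 at KPT P6 (adjusted p = 0.693). Elovl7 (r = 0.8), Cdh16 (r = 0.783) and Irx3 (r = 0.772) had the most similar group means, most of which were below background for Prom1. Without T-LM P1 replicate 1 these r were 0.797, 0.783 and 0.764.

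Ly6a was the only member that separated all 3 routes at P6. Its P0 levels were -1.04 and -1.07. The K-LM P6 samples were at 1.73, 2.00 and 1.80, the KPT P6 samples at 0.67, 0.69, 0.82, 0.74 and 0.09, and the T-LM P6 samples at -0.07, -0.73, -0.23 and -0.17. The 3 routes did not overlap, with K-LM highest and T-LM lowest, against the shares of 19.7%, 40.4% and 42.8% of tested probes without overlap given above. Every P6 sample was above P0, against the shares of 34%, 43% and 56.4% given above. Relative to KPT, Ly6a was 1.84-fold lower in T-LM (-0.88 ± 0.16, adjusted p = 0.000461) and 2.2-fold higher in K-LM (1.14 ± 0.18, adjusted p = 0.000173). It was 4.04-fold higher in K-LM than in T-LM (2.02 ± 0.21, adjusted p = 3.6e-06). Among the 5 tested members it was the only one called from KPT to T-LM, against 11.5% of tested probes, and from T-LM to K-LM, against 11.9%. Within the late slide the KPT to K-LM difference was 1.15 (adjusted p = 0.000345), as large as over both slide sets, while T-LM P6 has no array there. With all arrays of the series in 1 model both comparisons with KPT lost their call (adjusted p = 0.103 and 0.0314).

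From P0 to P6, Ly6a rose 7.20-fold in K-LM (2.85 ± 0.36, adjusted p = 8.06e-06). In KPT the change was 1.79 ± 0.44 (adjusted p = 0.0186, and 1.61 with 4.86e-05 on the late slide alone), and in T-LM it was 0.89 ± 0.40 (adjusted p = 0.186). In T-LM Ly6a rose early and fell later. The T-LM P1 samples were at 0.95, 1.48, 1.51, 1.60 and 1.44, the P4 samples at 1.43, 2.10, 1.60 and 2.14, and the 6 P5 samples ran from -0.13 to 1.61 around a median of 1.51. All P1 samples were above P0 and above P6, comparisons in which 31% and 20.8% of tested probes did not overlap. Ly6a was 5.99-fold higher in T-LM P1 than in P0 (2.58 ± 0.37, adjusted p = 0.000169) and fell 3.24-fold from P1 to P6 (-1.70 ± 0.29, adjusted p = 0.000328). Without P1 replicate 1 these changes were 2.70 (adjusted p = 4.1e-05) and -1.81 (adjusted p = 0.000267). The rise to P1 was not called without P0 replicate 2 (2.51, adjusted p = 0.0139), nor was the fall with the RNA index as a covariate (-1.42, adjusted p = 0.0129). From P3 to P6 in T-LM the change was -0.96 ± 0.36 (adjusted p = 0.0799), and in K-LM 1.22 ± 0.33 (adjusted p = 0.0182).

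Ly6a was the only member of 5 called from P0 to T-LM P1, against 2.56% of tested probes. Without P1 replicate 1, Cd44 (1.65, adjusted p = 0.000298, against 1.18 and 0.0994 with it) and Thy1 (at least 41.8-fold, adjusted p = 0.000122, against 14.4-fold and 0.0349) were called as well, and all probes called rose from 601 to 1887. From T-LM P1 to P6, Nt5e and Ly6a were the 2 called of 5, in opposite directions, against 9.28% of tested probes. In KPT no member of 6 was called from P0 to P1, where 4.41% of tested probes were, or from P1 to P6, where 11.6% were. By limma's unadjusted p, 4 and 3 of the 6 members were below 0.05. The nearest KPT change was that of Nt5e from P0 to P1 (at least 2.10-fold, fitted change 2.38 ± 0.61, adjusted p = 0.0149), which was called without either P1 sample below background, replicate 1 (2.80, adjusted p = 0.0021) or replicate 2 (2.72, adjusted p = 0.00497). KPT P1 Ly6a samples were at 0.06, 0.33, -0.10, -0.20 and -0.48, all above P0, where 32.8% of tested probes did not overlap.

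**Figure D4:**
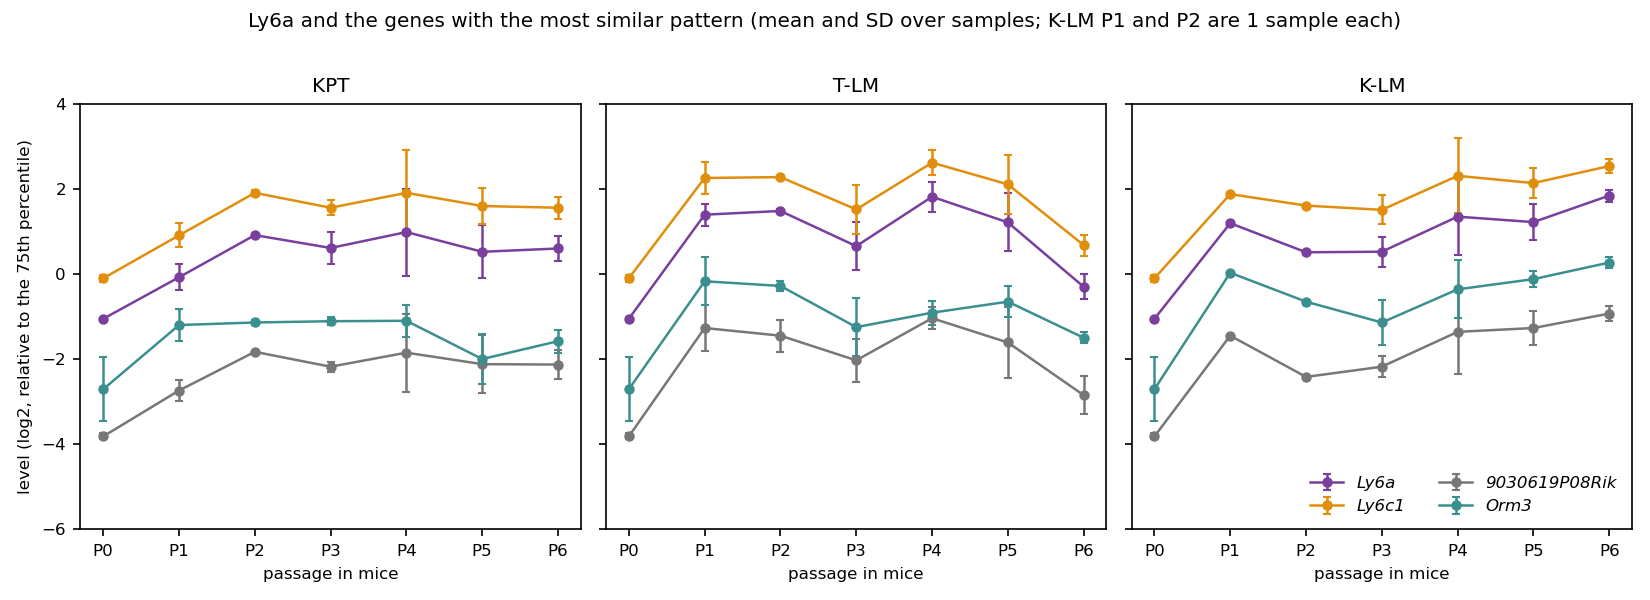
Mean level (log2, relative to the array's 75th percentile, vertical axis; bars are the SD over samples) by passage for Ly6a and its 3 nearest genes in KPT, T-LM and K-LM. The shapes can be compared and the heights of different genes cannot. Ly6a falls from 1.22 at T-LM P5 to -0.30 at P6 and stands at 1.85 at K-LM P6, and Ly6c1 has the same shape.

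The 2 genes closest to Ly6a ran almost in parallel with it over the 19 group means, its family member Ly6c1 (r = 0.991) and 9030619P08Rik (r = 0.987), followed by Orm3 (r = 0.814), an acute-phase protein gene. Without T-LM P1 replicate 1 these were 0.991, 0.986 and 0.817. Ly6c1 rose from P0 to P6 by 1.77 ± 0.38 in KPT (adjusted p = 0.00745) and by 2.66 ± 0.34 in K-LM (adjusted p = 9.17e-06), and its T-LM change was 0.86 ± 0.40 (adjusted p = 0.199). At P6 it differed by -0.88 ± 0.14 from KPT to T-LM (adjusted p = 0.000217) and by 0.98 ± 0.17 from KPT to K-LM (adjusted p = 0.000347). Whether the Ly6a probe also binds transcripts of its relatives was not tested. For this and the following lists, the share of all tested probes called higher from P0 to P6 was 3.4% for KPT, 5.9% for T-LM and 3.66% for K-LM. Listed genes below background in P0 passed the filter only through passaged samples, so a fall from P0 was not open to them. Of the 22 listed Ly6 family genes, 3 of 9 tested rose from P0 to KPT P6, 1 of 10 to T-LM P6 and 1 of 11 to K-LM P6, and none fell. They included Plaur, the urokinase receptor, at 1.76 ± 0.28 in KPT (adjusted p = 0.000467) and 1.71 ± 0.33 in T-LM (adjusted p = 0.00131), and Lypd3 at 1.21 ± 0.24 in KPT (adjusted p = 0.00366).

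Interferon response genes, a list chosen because interferons induce Ly6a in many mouse cells, differed between routes at P5 and P6. At P5, 7 of 15 tested were higher in K-LM than in T-LM and 4 were higher in K-LM than in KPT. The shares of all tested probes called higher were 1.75% and 2.9%. The median changes of the list were 1.75 and 1.32. From KPT to T-LM none was called, with 5 at an unadjusted p under 0.05 by limma. Ly6a was not called at P5, where its change was 0.01 from T-LM to K-LM (adjusted p = 0.993), 0.70 from KPT to K-LM (adjusted p = 0.214) and 0.69 from KPT to T-LM (adjusted p = 0.193). At P6, of 16 tested, 1 was higher and 5 were lower in T-LM than in KPT, against 6.98% and 4.53% of all tested probes. In K-LM 6 were higher than in KPT and 8 higher than in T-LM, against 6.24% and 4.21%. The median changes of the list were -0.49, 0.59 and 1.25, against -0.01, -0.01 and -0.02 over all tested probes. From P0 to P6, limma called 0 of 15 in KPT, with 0 at an unadjusted p under 0.05, and 0 of 15 in T-LM, with 7. In K-LM it called 2 of 16, namely Stat2, a signal transducer of type I interferon (1.95 ± 0.26, adjusted p = 1.87e-05), and Gbp2, a guanylate-binding protein (1.94 ± 0.43, adjusted p = 0.00459).

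A list of ectonucleotidase and adenosine genes included some that rose in each route, but only Enpp2 was called in every route. Whether Enpp2 has a part in making adenosine was not tested. Of 20 listed, 3 of 9 tested rose from P0 to KPT P6, 2 of 8 to T-LM P6 and 3 of 11 to K-LM P6, and none fell. Their median change was 0.67, 0.83 and 0.82. Enpp2, the secreted enzyme autotaxin, rose by 4.20 ± 0.18 in KPT (adjusted p = 2.2e-10), 5.26 ± 0.30 in T-LM (adjusted p = 7.62e-10) and 4.40 ± 0.40 in K-LM (adjusted p = 1.09e-07). Slc28a2, a nucleoside transporter, rose by 4.53 ± 0.43 in K-LM (adjusted p = 1.48e-07), as did Entpd2, an ATP-hydrolysing ectoenzyme, by 2.74 ± 0.35 (adjusted p = 1.16e-05). Cd38, an NAD-consuming ectoenzyme, rose in T-LM (1.89 ± 0.46, adjusted p = 0.00831).

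Partners of Cd44 and hyaluronan were called in small numbers. Of 16 tested, 1 rose in KPT, 4 rose in T-LM and 1 rose in K-LM from P0 to P6, with median changes of 0.02, 0.20 and 0.29. Esrp1, a regulator of Cd44 splicing, was the single call in KPT and in K-LM and rose in every route, by 3.10 to 4.11. Has2, a hyaluronan synthase, rose by 4.57 ± 1.09 in T-LM (adjusted p = 0.00754), and was -0.45 ± 1.32 in KPT (adjusted p = 0.91). The proteases Mmp9 (3.54 ± 0.78, adjusted p = 0.00428) and Mmp14 (2.59 ± 0.61, adjusted p = 0.00676) also rose in T-LM. At P6 Has2 was 4.90 ± 0.43 higher in T-LM than in KPT (adjusted p = 2.57e-07) and its change from T-LM to K-LM was -4.47 ± 0.59 (adjusted p = 3.93e-05).

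Of the TGF-beta and BMP receptor list around Eng, 2 of 27 tested rose from P0 to P6 in KPT, 7 of 26 in T-LM, and 5 rose and 1 fell of 27 in K-LM. Ccn2, a matrix protein gene induced by TGF-beta, rose by 6.62 ± 0.99 in T-LM (adjusted p = 0.000105) and 4.28 ± 1.02 in K-LM (adjusted p = 0.00857). Bmp4, a BMP ligand, rose in all routes, by 3.21 (KPT), 5.28 (T-LM) and 3.25 (K-LM). The receptor genes Tgfbr2 (4.75 ± 0.70 and 4.44 ± 0.73) and Tgfbr3 (3.07 ± 0.68 and 3.90 ± 0.89) rose in T-LM and K-LM, with adjusted p of 0.0058 or less. Eng itself was not called from P0 to P6.

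Of other surface genes of mesenchymal stromal cells, 1 of 16 tested rose from P0 to P6 along KPT, 4 of 18 along T-LM and 2 of 17 along K-LM, and none fell. These counts stand against the shares of 3.4%, 5.9% and 3.66% over all tested probes, and a single call of 16 is near such a share. Pdgfrb, a growth factor receptor of pericytes and fibroblasts that is also among the 8 markers above, rose by 4.49 ± 0.46, 4.58 ± 0.62 and 4.95 ± 0.58 in the 3 routes. Anpep, an aminopeptidase (CD13), rose by 4.52 ± 0.83 in T-LM, as did Icam1, an adhesion molecule, by 2.2 ± 0.47. Cspg4, the pericyte proteoglycan NG2, rose in the lung routes, by 2.29 ± 0.39 along T-LM and by 2.2 ± 0.46 along K-LM. Of other genes used to mark stem-like tumour cells, 1 of 12 tested rose along KPT, 4 of 14 along T-LM and 1 of 13 along K-LM. Itgb4, an integrin chain, rose by 1.85 ± 0.33, 1.84 ± 0.35 and 2.00 ± 0.41 in the 3 routes. Cd200 (4.85 ± 0.80), an immune checkpoint ligand, Aldh1a1 (4.58 ± 0.81), a retinaldehyde dehydrogenase, and Itga6 (3.40 ± 0.57), the integrin partner of Itgb4, rose in T-LM, with adjusted p of 0.000592 or less. In K-LM their changes of 3.07 ± 0.996, 3.25 ± 0.82 and 1.39 ± 0.66 were not called (adjusted p = 0.0597, 0.0126 and 0.246). The study had also reported an increase of Aldh1a1. Fibroblast marker sums were higher in T-LM P6 than in KPT P6, as given above, and their part in these counts was not tested.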

How the data were processed

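Transcripts were measured on single-colour Agilent mouse arrays with Cy5-labelled RNA. Scanner output deposited by the authors gives an intensity for each of 62976 spots an array, which the scanner software (version 11.0.1.1 on 8 slides, 12.0.2.2 on the late slide) had background-subtracted. A second table that the authors deposited, in log2 units, matched quantile-normalized log2 raw median signals, with a largest difference of 0.105. It served as an alternative. The genome build behind the probes is not given in the sources used here.

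After 3671 control spots were left out, 59305 spots were averaged into 55681 probes, of which 28026 were named through a RefSeq table (GRCm38.p6, names only). Each array was scaled to the 75th percentile over 11289 probes well above background on all arrays, and log2 was taken. Array number, not a counting depth, limits the precision. The 6 members and all gene lists were chosen with earlier results of these data known. For each member the 3 genes of highest r over 19 group means, and for each list at most 4 genes called from P0 to P6, by the size of the change, were named.

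Changes were fitted with limma 3.58.1 (R 4.3.3, statmod 1.5.0), 2-sided, over probes that passed background on 2 or more arrays, at an adjusted p of 0.01 or less. Each route was fitted on its first arrays with P0 and without P1, which was added where compared. Fits of K-LM and of P6 included repeat arrays, with a late-slide term and sample as a random block. Levels printed for P0 and KPT P6 are means of both arrays and can differ from a fitted change. The labels do not say whether repeat arrays share an RNA extract. The scripts were tested on simulated data. Alternatives were the scaling, filter, floor, background correction (normexp with offset 50 on median signals, as a mean signal was not used here), series values, slide terms, a replicate block, the RNA index, other probes, 1 model of all arrays, and single samples left out. K-LM P1 and P2 hold 1 sample each and were not tested.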

Additional observations from a re-analysis of the deposited data

Results flagged for a closer look

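Of 54 member groups of 4 to 10 samples, 8 held a sample whose gap to the nearest other sample was large for the group's range, where chance gives about 1 in 20. T-LM P1 replicate 1 accounted for 3 of them. It was at -3.24 for Cd44 (others -1.20 to -0.62), at -8.97 for Thy1 (others -2.16 to -0.77, replicate 1 not well above background) and at 0.95 for Ly6a (others 1.44 to 1.60). T-LM P5 replicate 1 was at 1.44 for Thy1 (others -2.84 to -2.49) and at -0.13 for Ly6a (others 1.18 to 1.61). T-LM P5 replicate 2 was at -5.07 for Nt5e (others -4.62 to -4.38). KPT P6 replicate 5 was at 0.09 for Ly6a (others 0.67 to 0.82). T-LM P1 replicate 5 was at -8.38 for Prom1 (others -9.03 to -8.95), with no sample well above background.

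Routes differed within a passage by limma in 5 comparisons of a member. Eng differed by -0.86 from KPT to K-LM at P5. At P6, Ly6a differed by -0.88 from KPT to T-LM, by 1.14 from KPT to K-LM and by 2.02 from T-LM to K-LM, and Thy1 by 2.74 from KPT to K-LM.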

How the results depend on the processing

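The numbers of members called moved as follows. From KPT P3 to P6 the 1 call (Eng) became 0 with the percentile of all probes, no filter, all arrays in 1 model, the replicate block and the RNA index, and from KPT to K-LM at P5 the 1 call became 0 with these and with normexp or the series values. From K-LM P3 to P6 the 1 call became 0 with no filter, the replicate block or the RNA index, and 2 without the slide term. From KPT P0 to P6 there were 2 with all arrays in 1 model and 4 on the late slide alone. From KPT P0 to P1 there was 1 (Nt5e) with normexp, the series values, all arrays in 1 model or slide as a random block. There were 2 from T-LM P3 to P6 with all arrays in 1 model and 2 from T-LM P0 to P1 with the RNA index. At P6, KPT to T-LM and T-LM to K-LM each had 2 with normexp, the series values, a floor or no slide term. With all arrays in 1 model KPT to T-LM and KPT to K-LM had 0, and KPT to K-LM had 1 with the replicate block (Thy1 adjusted p = 0.01003) or on the late slide alone. The causes were not tested. With single samples left out the number ranged from 0 to 1 for KPT P3 to P6 and KPT P0 to P1, from 1 to 2 for T-LM P0 to P6, T-LM P3 to P6 and KPT to K-LM at P6, from 0 to 3 for T-LM P0 to P1, and from 0 to 2 for K-LM P3 to P6 and KPT to K-LM at P5.

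No called change of a member reversed. Uncalled changes near 0 did. Cd44 from KPT P3 to P6 was -0.01 (percentile of all probes), -0.07 (normexp) and -0.057 (series values), and Nt5e was -0.018 (normexp) and -0.013 (series values). Eng from KPT P0 to P1 was -0.16, -0.10 and -0.11 under those 3 settings and -0.078 with the RNA index. Cd44 from T-LM to K-LM at P6 was 0.10, 0.072 and 0.077, and -0.029 from KPT to K-LM by its other probe. Ly6a from T-LM to K-LM at P5 was -0.032 (percentile) and -0.003 (slide as random block), and Prom1 there was 0.18 (normexp) and 0.21 (series values). With the RNA index Ly6a was 0.12 from KPT P3 to P6, Cd44 was -0.027 from T-LM to K-LM at P5 and Thy1 was -1.80 from KPT to K-LM at P5. Without the slide term Eng was -0.048 from KPT to K-LM at P6. With samples left out, these ranged over 0: Cd44 at P5 (-0.022 to 0.20) and P6 (-0.15 to 0.11) from T-LM to K-LM and from T-LM P1 to P6 (-0.041 to 0.62), Eng from KPT P0 to P1 (-0.043 to 0.23), T-LM P0 to P1 (-0.25 to 0.019) and KPT to K-LM at P6 (-0.074 to 0.14), Ly6a from KPT P3 to P6 (-0.28 to 0.26) and T-LM to K-LM at P5 (-0.26 to 0.15), and Thy1 from KPT to K-LM at P5 (-0.50 to 1.39).

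Replicate numbers were shared between groups, and same-numbered samples deviated together with r of -0.50 to 0.58. Such values cannot exclude a shared mouse or culture for some numbers, and the main fits did not pair the samples. With the replicate block Ly6a was -0.22 from T-LM to K-LM at P5 and Eng -0.022 from KPT to K-LM at P6. The block gave 3 calls from T-LM P0 to P6 and 3 from K-LM P0 to P6.

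Over all probes the count called moved by more than 1.5 times in 92 fits and stayed within that in 198. From KPT P3 to P6 it was 150 at first, 0 with the RNA index, 6 with the replicate block, 35 with the percentile of all probes and 261 with the filter by group. Scaling by the percentile of all probes moved the median change of all tested probes from T-LM P0 to P1 to -0.27, against 0.14, and the share of higher calls in KPT P0 to P6 was 82.3%, against 87.8%. Nt5e, Thy1 and Prom1 lay near background in P0, so their fitted changes from P0 are set against background, and the bounds are smaller.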
